A study of Homo sapiens with 36 samples.

Results

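Wild-type (WT) TXNL1 was compared with an empty vector in TXNL1 knockout (KO) cells under arsenite. The comparison took every library labelled WT or vector with arsenite, which gave 6 of the 36 RNA-seq libraries, 3 in each group. All cells were HEK-293T, a human embryonic kidney line, and all carried the TXNL1 KO, including the vector controls. The KO was made with CRISPR in clones grown from single sorted cells, and a lentivirus with a CMV promoter then brought in WT TXNL1 or nothing. Arsenite was given at 100 µM for 6 h. The rest of the series held the same lines untreated (labelled DMSO) or under 600 µM H2O2 for 6 h, and 2 mutants of TXNL1, DR-RD and SxxS, in each condition. Per the methods, treatments were made in triplicate on plated cells of each line. Separate passages or days are not stated there or in the labels, so p-values measure the spread between these libraries only.

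TXNL1 has a thioredoxin domain, which carries out thiol redox chemistry, and a PITH domain, through which it sits on the 19S regulatory particle of the proteasome. Arsenite binds thiols in proteins. In human cells it is known to misfold proteins, to switch on heat shock factor genes such as HSPH1 and BAG3, to induce immediate early genes such as JUN, and to start the integrated stress response, in which ATF4 drives amino acid genes such as ASNS.

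Total counts were 45758737, 127848785 and 114679200 in the vector libraries and 174119002, 42508758 and 94479028 in WT replicates 1, 2 and 3. Over all 36 libraries they ran from 42072410 to 174119002. WT replicate 1, the deepest of all, stood apart from its replicates. Its log2 levels differed from the group median with an SD of 0.531 over genes, against 0.0506 to 0.168 in 34 other libraries, and 1 further library, WT H2O2 replicate 2, stood apart in the same way at 0.607. The arsenite contrast was therefore fitted with all libraries and again without WT arsenite replicate 1.

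What WT replicate 1 measured differently went with transcript length. Against the vector mean, its median gene was 0.63 higher on the log2 scale among transcripts under 1 kb and 0.66 lower among those over 8 kb, whereas WT replicates 2 and 3 lay between 0.01 and 0.08 in all 5 length classes. Long genes such as UTRN, NOTCH2 and KMT2D were far down in it, at log2 differences of -1.96, -1.93 and -1.87 from the mean of replicates 2 and 3. Short genes such as MRPL23 and NDUFAF8 were far up, at 1.29 and 1.27, but the 10.4 kb noncoding RNA MALAT1 was also up, at 1.27. The 2 largest drops, -2.54 and -2.37, were those of ENSG00000288841 and ENSG00000289282, whose transcripts have 0.429 and 0.393 kb and so go against the trend. The library's deviations went with GC content as well, from a median of -0.30 against the vector mean in genes under 40% GC to 0.27 in those over 60%. Over 10246 genes at a level of 10 CPM or more (CPM are counts scaled by library size), its deviations correlated with those of WT H2O2 replicate 2 at r = 0.949, a description across genes, which are not replicates. The part of this length pattern in the results with all libraries was not tested beyond leaving the library out and the length and GC offsets given with the other settings.

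**Figure D1:**
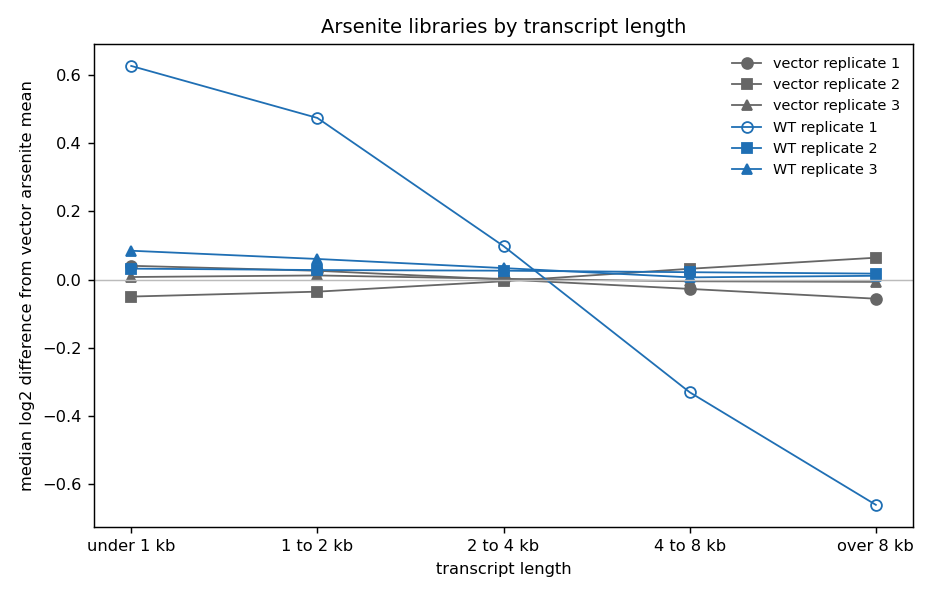
Median log2 difference of each arsenite library from the vector arsenite mean (vertical axis) by class of transcript length (horizontal axis), for genes at 10 CPM or more, with vector in grey and WT in blue. WT replicate 1 (open circles) falls from 0.63 to -0.66, and the other 5 libraries stay between -0.06 and 0.08.

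Markers listed for the line were present only in part. Of 7 HEK-293T markers, 4 were above 1 CPM in each of the 6 libraries (VIM, KRT8, KRT18 and NES). Vimentin (VIM) lay between 476 and 599 CPM. The others were low, with 0.575 to 1.14 CPM of NEFL, 0.471 to 0.677 of PAX2 and 0 to 0.226 of NEFM. Of the leukocyte, hepatocyte and endothelial markers, 3 of 5, 2 of 4 and 2 of 4 were under 0.1 CPM throughout, and none was above 1 CPM in all 6, although CD14 had 0.961 to 1.58 CPM. Of the 5 fibroblast markers, 3 were above 1 CPM in all 6 libraries (COL1A1, COL3A1, LUM), and the 5 summed to 25.8 to 30.2 CPM in vector and 19.5 to 27.4 in WT libraries, the lowest being WT replicate 1.

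Upstream sequences are shown for genes that stand for the main groups below, since each holds a short motif known from that group. They come from RefSeq windows of 250 bases before the start (GRCh38.p14), read 5′ to 3′ on the gene's strand, with the motif in capitals. The windows of ASNS and JUN are given whole, and the E-box stretches are parts of 43 to 60 bases. The first is ASNS, which carries a match to TGATGNAA, the core of the element bound by ATF4 with CHOP, on chr7:97872409-97872658, minus strand.
ASNS: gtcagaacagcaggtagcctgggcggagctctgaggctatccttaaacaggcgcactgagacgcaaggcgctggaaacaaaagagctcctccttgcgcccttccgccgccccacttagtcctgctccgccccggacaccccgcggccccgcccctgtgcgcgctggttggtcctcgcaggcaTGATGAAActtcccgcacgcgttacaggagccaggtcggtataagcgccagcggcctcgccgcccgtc
A second RefSeq start of ASNS, with the window chr7:97872166-97872415, held no match. The other whole window is that of JUN, with TGACATCA, an element bound by AP-1 dimers that include JUN itself, on chr1:58784048-58784297, minus strand.
JUN: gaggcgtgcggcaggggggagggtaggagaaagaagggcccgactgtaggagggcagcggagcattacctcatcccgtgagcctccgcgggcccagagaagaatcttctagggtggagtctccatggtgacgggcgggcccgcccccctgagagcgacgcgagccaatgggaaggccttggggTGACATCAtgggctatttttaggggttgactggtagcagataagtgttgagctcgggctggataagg
The third set holds the E-box CACGTG, a motif bound by MYC and related factors, in 3 ribosome assembly genes. These were picked among the genes of that list called higher without WT arsenite replicate 1. They are CCDC86 (chr11:60842061-60842112, plus strand), PWP1 (chr12:107685637-107685696, plus strand) and RBM19 (chr12:113966326-113966368, minus strand).
CCDC86: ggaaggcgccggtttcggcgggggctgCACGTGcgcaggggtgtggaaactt
PWP1: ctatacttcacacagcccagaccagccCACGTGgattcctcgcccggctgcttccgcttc
RBM19: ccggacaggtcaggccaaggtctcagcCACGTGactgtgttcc

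Motifs were searched on both strands in the same windows of 27305 genes. TGATGNAA was in 3.89% of all genes and in 3 of 17 integrated stress response genes with a window (ASNS, ATF3, CHAC1). TGACATCA was in 2.91% of all genes and in 2 of 14 immediate early genes (JUN, KLF6). CACGTG was in 7.73% of all genes and in 15 of 86 ribosome assembly genes. The heat shock element, searched as 3 alternating GAA and TTC units that start with GAA and are spaced by 2 bases, was in 0.557% of all genes and in 6 of 21 heat shock genes, but not in the windows of HSPH1 or BAG3. A match is a description of letters and no evidence of binding.

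TXNL1 itself was checked first (chr18:56597209-56651600, minus strand). Its level was 71.9, 67.9 and 68.2 CPM in the vector libraries and 107, 97.2 and 97.2 CPM in WT replicates 1, 2 and 3. The groups did not overlap. The log2 fold change of WT over vector was 0.54 ± 0.06 (SE, adjusted p = 7.4e-06 by edgeR's quasi-likelihood test after the Benjamini-Hochberg method) and 0.49 ± 0.06 without replicate 1 (adjusted p = 9.2e-05). The KO clone still made TXNL1 reads, which rose from a mean of 30.6 CPM untreated to 69.3 CPM under arsenite in vector cells, so the count checks the added copy and not the loss of the protein. Untreated, the same contrast was 0.83 on the log2 scale, and the change of it by arsenite was -0.29 ± 0.08 with all libraries and -0.34 ± 0.08 without replicate 1, with adjusted p = 0.55 and 0.77. TXNL1 shares exon sequence with an antisense gene.

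The partners of TXNL1 on the proteasome did not pass the test in either fit. PSMD14, the deubiquitinase of the 19S lid, had 194, 199 and 198 CPM with vector and 247, 200 and 207 CPM with WT (log2 fold change 0.15 with all libraries and 0.05 without replicate 1). PSMD4, a ubiquitin receptor, had 226, 225 and 231 CPM with vector and 378, 223 and 250 CPM with WT, where the high value is WT replicate 1 (0.32 and 0.06). PSMD1, the large scaffold of the base, had a log2 fold change of 0.04 with all libraries and -0.01 without replicate 1. PITHD1, the other human protein with a PITH domain, had 0.23 and 0.08.

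With all libraries, 299 of 22486 genes tested passed an adjusted p of 0.05, or 1.33%, of which 127 were higher and 172 lower with WT. Without WT replicate 1, 93 genes passed, or 0.414%, of which 40 were higher and 53 lower. The fits share 5 of the 6 libraries. They shared 70 genes, 29 higher and 41 lower, with none in opposite directions, which is 23.4% of the first set and 75.3% of the second. In 69 of the 70 the 3 WT libraries did not overlap the 3 vector libraries, against 9.84% of all genes not overlapping upward and 10.1% downward. The 70 were selected by tests on these same libraries, so their separation is a description and no further support. Fitted on the 6 libraries alone, edgeR called no gene (1247 had an unadjusted p under 0.05), and on the 5 without replicate 1 it called 786. Most changes were small: 33 of the 299 and 14 of the 93 had an absolute log2 fold change of 1 or more. Genes called lower with all libraries had a median transcript of 4.50 kb and those called higher 2.57 kb. Without replicate 1 these were 3.57 and 3.44 kb, and the median of all genes tested was 2.77 kb.

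The split between higher and lower depended on the scaling. Scaled to total counts alone, 72 genes were higher and 379 lower with all libraries, so that 15.96% of calls were higher in place of 42.5%. Without replicate 1 the same scaling gave 20 higher and 91 lower, 18.0% in place of 43.0%.

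Among protein-folding genes, 2 of 23 heat shock genes were lower with WT in both fits and none was higher, where 0.765% and 0.236% of all genes tested were called lower. HSPH1, an HSP70 nucleotide exchange factor (chr13:31134973-31162388), had 1072, 1100.5 and 1067 CPM with vector and 751, 854 and 861 CPM with WT. All WT libraries were below all vector libraries, and replicate 1 was the lowest. The log2 fold change was -0.39 ± 0.07 (SE, adjusted p = 0.0034), and -0.33 ± 0.07 without replicate 1 (adjusted p = 0.026). BAG3, the HSP70 co-chaperone that steers clients to autophagy (chr10:119651380-119677819), had 1007, 992 and 948 CPM with vector and 813, 842 and 808 CPM with WT. Its log2 fold change was -0.26 ± 0.05 and -0.25 ± 0.06 without replicate 1, with adjusted p = 0.013 and 0.047. These calls depended on the processing, more so without replicate 1. With all libraries HSPH1 kept its call in 20 of 21 alternative settings and BAG3 in 17 of 21. Without replicate 1 they kept it in 13 and 11 of 19.

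In vector cells HSPH1 was at a mean of 337 CPM untreated and 1080 under arsenite, a ratio of 3.21, and BAG3 at 59.0 and 982 CPM, a ratio of 16.6. Untreated, WT and vector were close, with log2 fold changes of -0.03 for HSPH1 and -0.02 for BAG3. Under H2O2, in the fit without both libraries that stand apart, they were -0.12 and 0.01 (adjusted p = 0.36 and 0.99). There too HSPH1 was lower in every WT library than in vector (373 to 383 CPM), with 337 and 355 CPM in WT replicates 1 and 3. WT H2O2 replicate 2, which stands apart and is not in that fit, had 271 CPM. The arsenite means of the vector cells enter both the ratio and the contrast, so these values are side by side and not independent. The whole list had a median log2 fold change of -0.05 in both fits, beside -0.03 and 0.00 for all genes tested. HSPA6, the strictly inducible HSP70, had 890, 815 and 852 CPM with vector and 925, 631 and 611 CPM with WT, and did not pass (adjusted p = 0.66 and 0.80). Under arsenite the DR-RD mutant had 979 to 1101 CPM of HSPH1 and the SxxS mutant 969 to 1070 CPM. Mutant levels are given for this gene alone, and WT was not tested against either mutant.

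JUN, an AP-1 subunit (chr1:58776845-58784048), had 1194, 1083 and 1056 CPM with vector and 841, 842 and 803 CPM with WT. All 3 WT libraries lay together below the vector libraries. The log2 fold change was -0.42 ± 0.07 (adjusted p = 0.0032), and -0.43 ± 0.08 without replicate 1 (adjusted p = 0.0092). JUN was the only one of 19 immediate early genes tested that passed in either fit, beside the 0.765% and 0.236% of all genes called lower. The list's median was -0.19 in both fits, and 18 of the 19 genes had a negative fold change without replicate 1, as did 11177 of all 22486 genes. JUN was also lower untreated, at -0.34 (adjusted p = 0.0079), but at 0.04 under H2O2 (adjusted p = 0.94). In vector cells its mean was 113 CPM untreated and 1111 CPM under arsenite.

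ASNS and PCK2, of amino acid and PEP supply, were lower with WT. ASNS, asparagine synthetase (chr7:97851677-97872542), whose upstream window is shown above, had 305, 300.3 and 307 CPM with vector and 265, 249.9 and 236 CPM with WT. Its log2 fold change was -0.28 ± 0.05 (adjusted p = 0.0068), and -0.33 ± 0.06 without replicate 1 (adjusted p = 0.0056). ASNS shares exons with a readthrough gene on the same strand, so reads of both cannot be told apart. PCK2, the mitochondrial PEP carboxykinase and an ATF4 target, had 21.0, 18.6 and 20.4 CPM with vector and 17.9, 13.1 and 11.4 CPM with WT. WT replicate 1 was the nearest to vector, and the log2 fold change went from -0.49 with it to -0.71 without it (adjusted p = 0.040 and 0.0030).

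PSAT1, of serine synthesis, passed only with all libraries, where WT replicate 1 read 295 CPM against 384 and 372 in the other WT libraries and 428 to 432 in vector (log2 fold change -0.30, and -0.19 without replicate 1, adjusted p = 0.018 and 0.12). Of the 17 integrated stress response genes, 2 were lower with all libraries (ASNS, PSAT1) and 1 without replicate 1 (ASNS), against 0.765% and 0.236% of all genes. In the second fit 15 of the 17 had a negative fold change, with a median of -0.14, against 11177 of 22486 genes and a median of 0.00. ATF4, the factor itself, had 689, 692 and 699.9 CPM with vector and 928, 644 and 654 CPM with WT, so that its direction turned with the library left out (log2 0.10 and -0.10, neither passing).

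**Figure D2:**
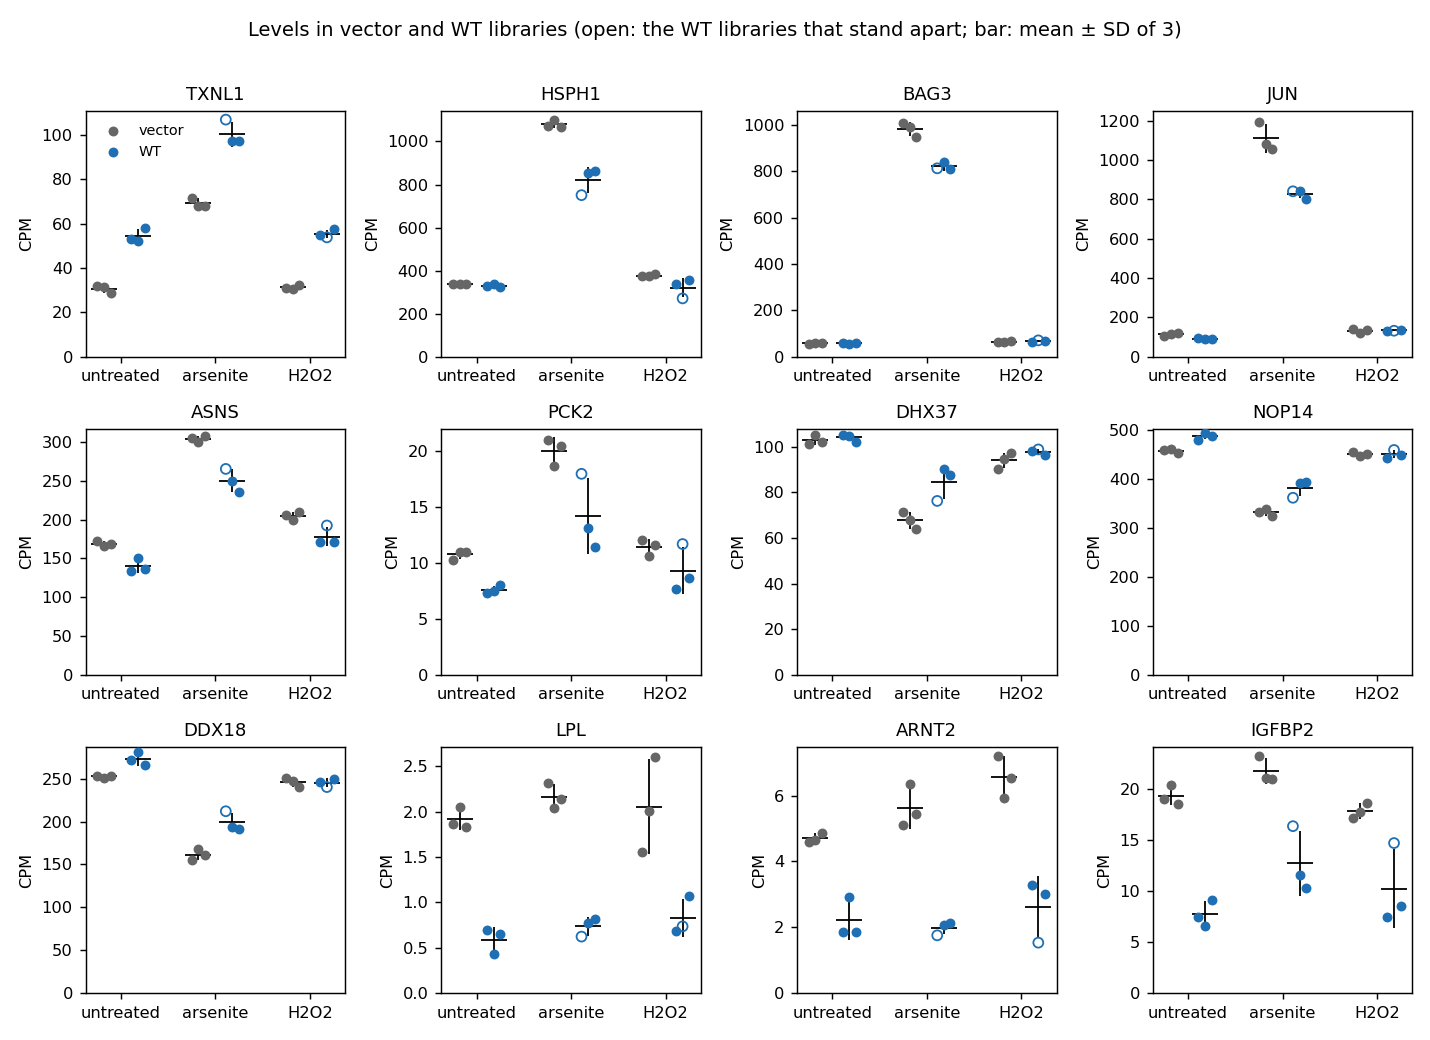
CPM (vertical axes, from 0) in each vector (grey) and WT (blue) library by condition, with the mean and SD of 3 libraries as black bars and the 2 WT libraries that stand apart as open circles. Under arsenite WT lies below vector in every library of HSPH1, BAG3 and JUN. Under H2O2 this holds for HSPH1 by a smaller step, and BAG3 and JUN overlap, whereas LPL, ARNT2 and IGFBP2 are lower with WT in all 3 conditions.

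The list of 100 genes that build ribosomes was put together after their values were seen, so its counts carry no support. Of these, 21 were higher and 0 lower with all libraries, and 12 were higher and 0 lower without replicate 1, where 97 of 100 had a positive fold change and the median was 0.16 (0.21 with all libraries). Among all genes tested, 0.565% were called higher in the first fit and 0.178% in the second. DHX37, a helicase of the small subunit processome (chr12:124946825-124989131), had 71.1, 67.8 and 64.0 CPM with vector and 76.2, 90.2 and 87.5 CPM with WT. The groups did not overlap, and replicate 1 was nearest to vector. Its log2 fold change was 0.32 ± 0.06 (adjusted p = 0.0037), and 0.39 ± 0.06 without replicate 1 (adjusted p = 0.00057).

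NOP14, of the same processome (chr4:2937933-2963406), had 333, 339 and 324 CPM with vector and 362, 391 and 394 CPM with WT. Its log2 fold change was 0.20 with all libraries and 0.24 without replicate 1 (adjusted p = 0.0068 and 0.0014). NOP14 overlaps its antisense gene NOP14-AS1, which had the same fold change, and their reads may not be separable. DDX18, a helicase of the large subunit, had 156, 168 and 161 CPM with vector and 212, 194 and 192 CPM with WT. Its log2 fold change was 0.30 ± 0.05 and 0.25 ± 0.05 without replicate 1, with adjusted p = 0.0014 and 0.0083. NOL6 passed only without replicate 1, which at 66.0 CPM lay among the vector libraries (65.9 to 67.0), while WT replicates 2 and 3 had 81.2 and 83.2 CPM (log2 fold change 0.21, and 0.31 without it, adjusted p = 0.085 and 0.0051).

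The 3 genes with an E-box printed above were picked because they were called higher without replicate 1, so that call is no result of the motif. They also passed with all libraries, a fit that shares most of its libraries. CCDC86 had 218, 208 and 201 CPM with vector and 262, 265 and 266 CPM with WT. PWP1 had 124, 124 and 125 CPM with vector and 154, 145 and 146 CPM with WT. RBM19 had 73.6, 75.6 and 71.9 CPM with vector and 82.1, 86.0 and 88.5 CPM with WT. In each of them WT lay above vector in all libraries, and log2 fold changes were 0.34, 0.26 and 0.21 with all libraries and 0.35, 0.23 and 0.24 without replicate 1. Of the 12 ribosome assembly genes called without replicate 1, 10 had an upstream window and 3 of these held CACGTG.

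In vector cells arsenite went with lower levels of these genes, as the ratio of arsenite to untreated means was 0.658 for DHX37, 0.725 for NOP14, 0.639 for DDX18 and 0.852 for CCDC86. In WT cells the means of DHX37 were 84.6 CPM under arsenite, WT replicate 1 included, and 104 CPM untreated. For DHX37, NOP14, DDX18 and CCDC86, the change of the contrast by arsenite did not pass with all libraries or without replicate 1. DHX37 passed when both libraries that stand apart were left out, as given below. Here too the vector arsenite libraries enter both the ratios and the contrast. Untreated, DHX37 and NOP14 had log2 fold changes of 0.02 and 0.09 (adjusted p = 0.90 and 0.066). Of the 100 listed genes, 16 were called higher and 0 lower untreated, without both libraries that stand apart, with a median of 0.08. Among all 22486 genes tested, 180 were called higher there. PWP1 and RBM19 were among those that passed (0.13 and 0.14, adjusted p = 0.043 and 0.034, edgeR). As the list was put together after values were seen, these counts are a description.

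LPL, ARNT2 and IGFBP2 were lower with WT in both fits. LPL, lipoprotein lipase, had 2.32, 2.04 and 2.14 CPM with vector and 0.621, 0.766 and 0.816 CPM with WT, a log2 fold change of -1.57 ± 0.21 (adjusted p = 0.00027) and -1.44 ± 0.24 without replicate 1 (adjusted p = 0.0041). ARNT2, a bHLH-PAS partner factor, had 5.11, 6.35 and 5.44 CPM with vector and 1.75, 2.06 and 2.13 CPM with WT (-1.52 and -1.43, adjusted p = 0.00041 and 0.0046). IGFBP2, which binds insulin-like growth factors, had 23.2, 21.1 and 21.0 CPM with vector and 16.3, 11.5 and 10.3 CPM with WT. Its log2 fold changes were -0.77 and -1.0 (adjusted p = 0.023 and 0.0076, edgeR). It was the only gene called of 16 of that axis, beside 0.765% and 0.236% of all genes called lower in the 2 fits. In all 3 genes WT lay below vector in every library.

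EYA2, a transcriptional cofactor and phosphatase, had the smallest adjusted p of the lower genes with all libraries. It had 8.80, 8.81 and 7.91 CPM with vector and 3.86, 4.41 and 4.72 CPM with WT (log2 fold change -0.98 ± 0.11 and -0.89 ± 0.13, adjusted p = 2.7e-05 and 0.00057). In vector cells its mean was 3.36 CPM untreated and 8.51 under arsenite. BACE2, a transmembrane aspartic protease, had 17.2, 17.3 and 16.4 CPM with vector and 13.1, 11.8 and 12.1 CPM with WT (-0.46 and -0.50). TSC22D3, a glucocorticoid-induced leucine zipper protein, had 57.9, 56.0 and 60.3 CPM with vector and 51.8, 41.6 and 40.1 CPM with WT (-0.38 and -0.51). MAMLD1, ANO4, ASIC1, CACNA1H, MRC2, BASP1 and PTPN18 were also lower in both fits, with log2 fold changes from -1.72 to -0.34 with all libraries and -1.38 to -0.34 without replicate 1.

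Of the 15 genes of the matrix and adhesion list, 0 passed in either fit, and the median was -0.25 with all libraries and 0.01 without replicate 1, where 8 were positive and 7 negative. A few genes outside that list that code for matrix or secreted proteins were lower, and are named after their values were seen, with no count of such genes behind them. COL6A2, a collagen VI chain, had 24.8, 28.8 and 25.8 CPM with vector and 18.0, 20.8 and 17.6 CPM with WT (-0.50 and -0.47, adjusted p = 0.0035 and 0.026). AGRN, a heparan sulfate proteoglycan of basement membranes, had 29.7, 24.2 and 23.4 CPM with vector and 17.8, 18.4 and 18.4 CPM with WT (-0.50 and -0.48, adjusted p = 0.0039 and 0.026). LAMB2, MMP2 and SERPINF1 were lower as well, with log2 fold changes of -0.36, -0.57 and -0.39 with all libraries and -0.37, -0.56 and -0.45 without replicate 1 (adjusted p = 0.011, 0.024 and 0.026 in the latter). COL6A1 went from -0.45 to -0.29 when WT replicate 1, at 39.0 CPM against 58.2 and 54.9 in the other WT libraries, was left out (adjusted p = 0.0068 and 0.026). The fibroblast marker sums given above were lower in WT replicate 1, and their part in these values was not tested. Untreated, without both libraries that stand apart, COL6A2, AGRN, SERPINF1 and COL6A1 were also lower with WT and passed (-0.54, -0.44, -0.48 and -0.28). LAMB2 and MMP2 did not pass there (-0.16 and -0.24). Under H2O2 only SERPINF1 of these genes passed (-0.50).

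Among the other genes higher with WT, ANKRD1, a muscle ankyrin repeat protein and YAP target, had 1.70, 1.76 and 1.58 CPM with vector and 4.86, 3.69 and 3.28 CPM with WT (log2 fold change 1.24 ± 0.20 and 1.05 ± 0.21, adjusted p = 0.0016 and 0.017). LDHA, lactate dehydrogenase A, had 1107, 1132 and 1172 CPM with vector and 1358, 1343 and 1334 CPM with WT (0.24 in both fits, adjusted p = 0.011 and 0.034). ZCCHC12, FAIM, EI24 and TAF13 were higher in both fits as well, with log2 fold changes from 0.27 to 0.45 with all libraries and 0.22 to 0.42 without replicate 1. In vector cells the ratio of arsenite to untreated means was 0.821 for LDHA, 0.616 for ZCCHC12, 0.671 for FAIM, 0.830 for EI24 and 0.397 for TAF13. Untreated, without both libraries that stand apart, ANKRD1, LDHA, ZCCHC12 and FAIM were also higher with WT and passed (0.88, 0.17, 0.30 and 0.16). EI24 and TAF13 did not pass there (0.09 and 0.04). The largest fold change called without replicate 1, that of the pseudogene RPS26P6 at 3.29 (2.84 with all libraries), rested on WT replicate 2 alone, which had 5.60 CPM against 0.207 in replicate 3 and 0.739 in replicate 1. Without replicate 2 as well it was -0.47 (adjusted p = 1.0).

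The other lists are given by their medians and counts. Of all genes tested, 0.565% were called higher and 0.765% lower with all libraries, and 0.178% and 0.236% without replicate 1. Their medians were -0.03 and 0.00. Ribosomal proteins had a median log2 fold change of 0.33 with all libraries and 0.04 without it, and 0 of 28 passed in either fit. The proteasome had 0.29 and 0.08, with 1 of 33 genes (PSMD6) higher in the first fit and 0 in the second. The thioredoxin system had 0.23 and 0.09, with 0 of 23 passing. These counts moved with the processing. Over the settings tried, thioredoxin system genes called higher ran from 0 to 11 with all libraries and 0 to 9 without replicate 1. Those of the proteasome ran from 0 to 22 and 0 to 7, and those of ribosome assembly from 0 to 62 and 1 to 59. The 18 NRF2 targets, the antioxidant genes, had -0.03 and -0.02, and 1 gene (NFE2L2) was lower in the first fit only. HMOX1, the haem oxygenase among them, had 176, 161 and 169 CPM with vector and 177, 135 and 137 CPM with WT (-0.17 and -0.31, not passing). None of the 6 metal response genes tested passed, and none of the genes in the unfolded protein, G2 and mitosis, G1/S, histone, mitochondrial or noncoding RNA lists. The p53 list had 1 gene lower (FAS) with all libraries and 0 without replicate 1.

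**Figure D3:**
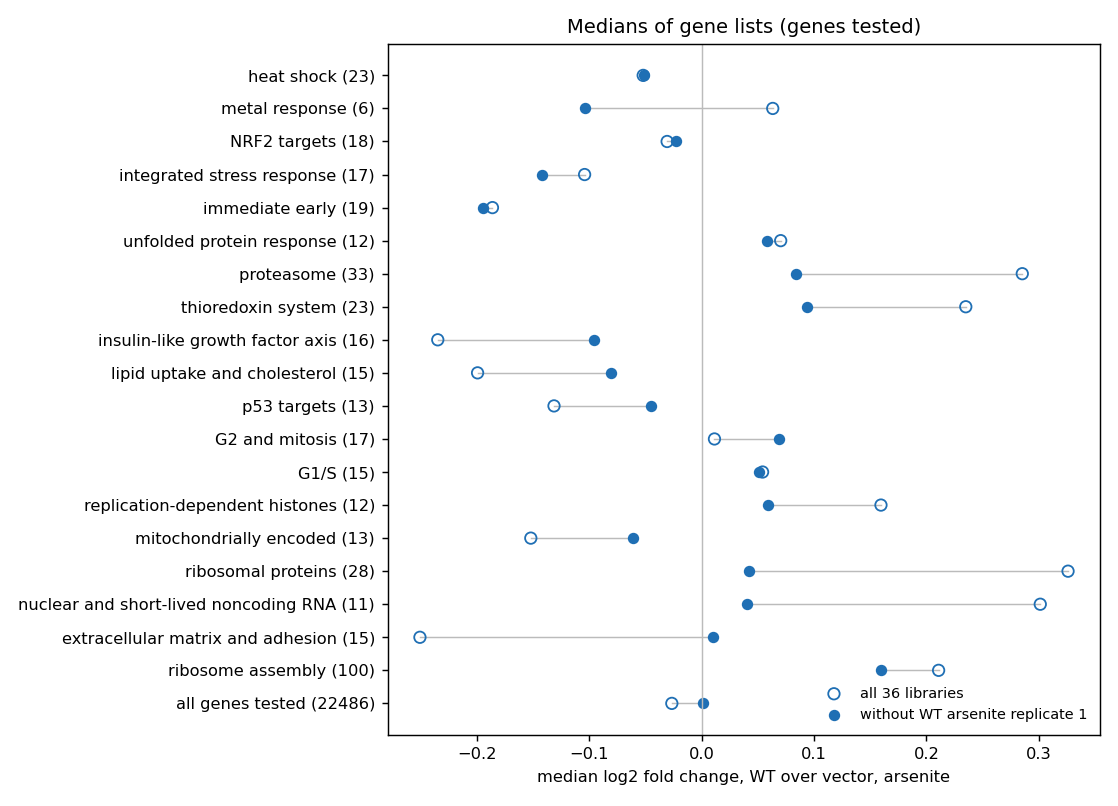
Median log2 fold change of WT over vector under arsenite (horizontal axis) for each gene list, with its number of genes tested, with all 36 libraries (open) and without WT arsenite replicate 1 (filled). Ribosomal proteins go from 0.33 to 0.04 and the matrix list from -0.25 to 0.01, whereas ribosome assembly stays at 0.21 and 0.16.

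The same contrast in the other conditions used other libraries, and was read here without both WT libraries that stand apart. Untreated, 673 genes passed, or 2.99%, and under H2O2 46 passed, or 0.205%. The arsenite contrast in that same fit called 665 genes, against 93 with only WT arsenite replicate 1 left out. With every library, 44 genes, or 0.196%, and 45 genes, or 0.2%, passed. Of the 93 genes called under arsenite without replicate 1, 88 had the same sign untreated (94.6%, against 60.1% of all genes) and 73 under H2O2 (78.5%, against 53.1% of all genes). The untreated and arsenite libraries came from the same cell lines, so a shared sign may be that of the lines.

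The 2 directions differed in size. The arsenite values here leave out WT arsenite replicate 1 alone, and those of the other conditions leave out both libraries that stand apart. The 53 lower genes had a median of -0.54 under arsenite, -0.32 untreated and -0.20 under H2O2. Of them, 29 passed untreated and 14 under H2O2. The 40 higher genes had medians of 0.25, 0.09 and 0.03, and 10 and 2 of them passed. As the genes were chosen for arsenite, a smaller median elsewhere is a description. LPL, ARNT2, MAMLD1, IGFBP2, PCK2, ASNS and BACE2 were lower with WT in all 3 conditions. For IGFBP2 the log2 fold changes were -1.31 untreated (adjusted p = 1.1e-09) and -1.15 under H2O2 (adjusted p = 5.9e-07), and for LPL they were -1.67 and -1.21. ZBTB20, a zinc finger repressor, had -1.04 under arsenite with all libraries and -0.89 without replicate 1, 0.04 untreated and 0.34 under H2O2.

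**Figure D4:**
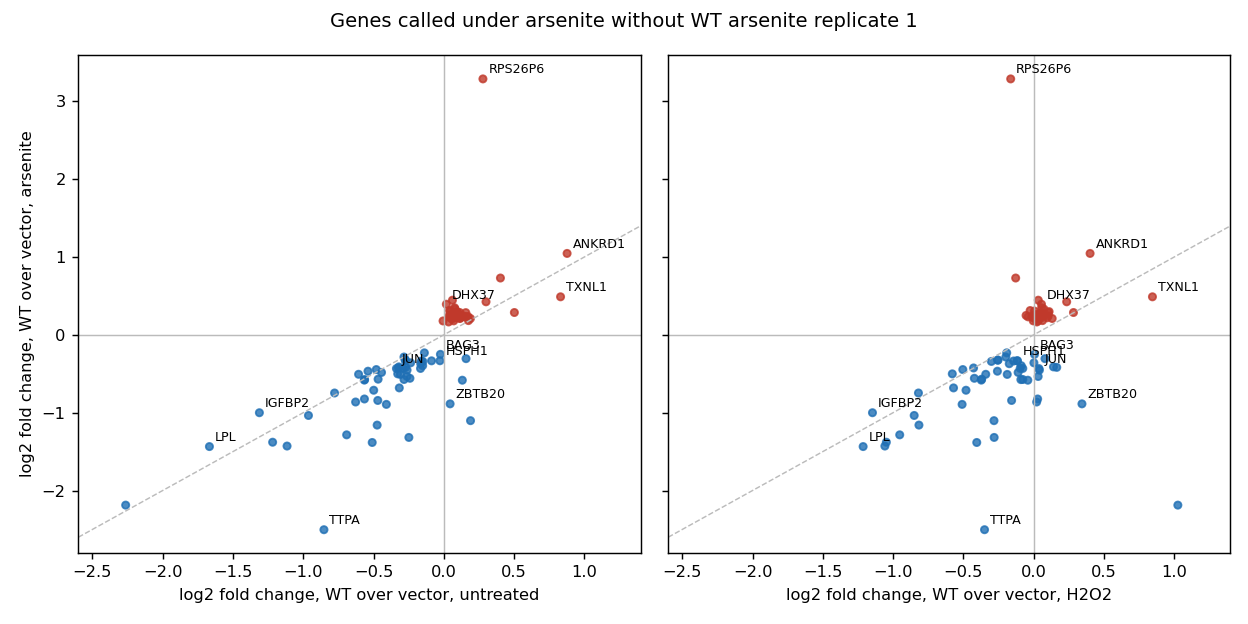
Log2 fold change of WT over vector under arsenite (vertical axes) against the same untreated and under H2O2 (horizontal axes) for the 93 genes called without WT arsenite replicate 1, with higher genes in red and lower genes in blue; the dashed line marks equal values. LPL and IGFBP2 lie near the line, BAG3 and DHX37 lie near 0 in the other conditions, and HSPH1 lies at -0.03 untreated and -0.12 under H2O2.

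Whether arsenite changed the effect of WT TXNL1 was tested by the interaction of line and treatment. No gene passed with all libraries (0%), although 1938 had an unadjusted p under 0.05, and none without WT replicate 1 (0%), where 811 did. DESeq2 called 0 and 4 genes, and limma voom with library weights 41 in each. When both libraries that stand apart were left out, 6 genes passed the edgeR test, 3 in each direction, and these were named after their values were seen.

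The genes that responded less to arsenite with WT were HSPH1, PPP1R15A and LRIF1. For HSPH1 the interaction was -0.31 ± 0.06 on the log2 scale (adjusted p = 0.028). PPP1R15A, the phosphatase subunit that ends the integrated stress response, had 170, 178 and 168 CPM in vector and 162, 152 and 147 CPM in WT libraries under arsenite, and 18.5 to 20.05 against 21.6 to 24.6 CPM untreated, with an interaction of -0.46 ± 0.08 (adjusted p = 0.015). The 162 CPM are those of WT replicate 1, left out of this fit. Levels of PPP1R15A crossed between conditions, being higher with WT untreated and lower under arsenite. LRIF1, a chromatin protein that binds HP1, had -0.47 ± 0.08 (adjusted p = 0.015).

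The genes with a positive interaction were DHX37, RRP9 and MAT2A. DHX37 had 0.37 ± 0.07 (adjusted p = 0.015), and RRP9, a protein of the U3 snoRNP, had 0.45 ± 0.09 (adjusted p = 0.028). RRP9 had 77.4, 76.4 and 76.8 CPM with vector and 125, 101 and 98.7 CPM with WT under arsenite, where 125 is WT replicate 1, left out of this fit. MAT2A, which makes S-adenosylmethionine, had 0.36 ± 0.07 (adjusted p = 0.026, edgeR). Most of it came from the untreated side, with 401 to 423 CPM in vector and 329 to 341 CPM in WT libraries. Under arsenite vector libraries had 91.1 to 98.9 CPM and WT replicates 2 and 3 had 99.5 and 103 CPM. WT replicate 1, left out of this fit, had 73.8 CPM.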

How the data were processed

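RNA from TXNL1 KO HEK-293T lines was sequenced from strand-specific libraries (DNBseq, paired ends). The authors aligned reads to GRCh38 with QuasR and deposited raw counts per gene. The annotation release, the QuasR version, and whether counting used strand or mates were not given in the sources used here. The submitters' processing notes name DESeq2. Identifiers were matched to GENCODE for GRCh38 (61369 of 61587).

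Here genes with at least 10 counts over the 3 untreated vector libraries were kept (22486). Counts were scaled by TMM and tested with edgeR 4.0.16 (quasi-likelihood, robust, 1 mean per group over 36 libraries, Benjamini-Hochberg over all genes tested, adjusted p under 0.05). Levels are CPM with TMM factors, and SEs are the fold change over the root of F. The biological coefficient of variation was 12.4%, and 10.1% without WT arsenite replicate 1. The fit was tested on simulated data. Alternatives used DESeq2 1.42.0 and limma 3.58.1 in R 4.3.3.

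Members and lists were chosen with earlier results of these data known. Named were TXNL1 and its partners, list members, the 10 genes with the smallest adjusted p each way in each fit (1 CPM or more), and the largest changes called in both. Of replicate pairs, 36 were compared by chi-square over df, from 3.31 to 341, and none was a duplicate.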

Additional observations from a re-analysis of the deposited data

How the results depend on the processing

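For WT against vector under arsenite, 299 genes with all libraries and 93 without WT arsenite replicate 1 were called. The corresponding counts were 451 and 111 with total counts, 1129 and 285 with DESeq2, 2105 and 2032 with voom weights, 68 and 38 with no filter, 0 and 786 with only the groups compared, 761 and 156 with a GC offset, and 604 and 143 with that offset and the replicate block. They were 2835 and 665 without WT H2O2 replicate 2, 665 without both libraries that stand apart, and 33 and 14 with a log2 minimum of 1. Chosen after seeing the data, a transcript length offset gave 761 and 205, and genes without exon overlap 131 and 49. In the fit of 6 libraries TXNL1 was 0.54 with adjusted p = 0.69. Leaving out 1 library gave 81 (without vector replicate 1) to 1907 (without WT replicate 2), and, where replicate 1 was already out, 7 (without WT replicate 3) to 38. Each of these libraries moved the count by over 1.5 times. The cause was not tested.

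Whether replicate numbers paired the samples could not be decided. Same-numbered WT and vector libraries correlated at 0.494, 0.619 and -0.034 in their deviations. WT replicates 1 and 2 correlated best with the vector library of the same number, and WT replicate 3 with vector replicate 2. Deviations within 3 replicates depend on each other, and WT replicate 1 stands apart, so the values for WT replicates 2 and 3 are not separate evidence. The replicate block gave 269 and 73 calls, and 22 in place of 45 under H2O2.

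The interaction gave 41 calls with voom in each fit, 1 with the GC offset, with or without the block, 6 without both libraries and, without replicate 1, 4 with DESeq2, 7 with only the groups compared and 0 to 2 leaving out 1 more library. The change of TXNL1 by arsenite passed with voom alone (-0.32, adjusted p = 0.028). Untreated, 44 calls became 76 (total counts), 143 (DESeq2), 877 (voom), 11 (no filter, and a log2 minimum of 1), 466 (only the groups), 110 (without WT H2O2 replicate 2), 673 (without both) and 5 to 40 leaving out 1 library. Under H2O2, 45 calls became 364, 158, 29 and 0 with DESeq2, voom, no filter and only the groups, 6 without WT H2O2 replicate 2, 10 with a log2 minimum of 1, and 6 to 1864 leaving out 1 library.

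For named genes, with all libraries and without replicate 1, alternatives kept the direction and the side of the threshold in 1077 and 854 cases, lost the call in 140 and 254 and gained it in 30 and 21. Without replicate 1, TFB2M and LDHA kept their call in 10 of 19 settings, TAF13 in 9 and PWP1 in 11. SELENOP and EMILIN2 kept it in 9 of 18, whereas DHX37 and BACE2 kept it in all 19. Of named genes, 5 turned under some setting, none of them passing after the turn: PSMD1 (-0.044 with total counts, -0.00578 with voom, -0.011 without replicate 1, -0.018 without both, and -0.011 to 0.072 leaving out 1 library), ATF4 (-0.093 with voom, -0.10 without both, and -0.096 to 0.19 leaving out 1 library), and, without replicate 1 and leaving out 1 more library, PSMD1 (-0.044 to 0.013), PSMD4 (-0.029 to 0.13) and RPS26P6 (-0.47 to 4.29). PSMD14 turned to -0.013 without replicate 1 with the GC offset and block.

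Depth ran from 42508758 to 174119002 counts in the 6 libraries. Halving the counts gave 402 and 97 calls.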

Other observations

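TFB2M and TWNK were higher with WT under arsenite, and are named after their values were seen. TFB2M, a transcription factor of mitochondrial DNA, had 28.8, 31.4 and 33.3 CPM with vector and 38.2, 38.6 and 37.5 CPM with WT (log2 fold change 0.29 ± 0.06 with and without WT arsenite replicate 1, adjusted p = 0.0072 and 0.027, edgeR). TWNK, the mitochondrial DNA helicase, had 57.6, 57.4 and 55.9 CPM with vector and 65.4, 66.8 and 67.6 CPM with WT (0.22 ± 0.05 and 0.24 ± 0.05, adjusted p = 0.015 and 0.026). WT lay above vector in all libraries of both genes. None of the 13 mitochondrially encoded genes passed, and their median log2 fold change was -0.15 and -0.06.

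EMILIN2, an elastin interface glycoprotein, was higher without WT arsenite replicate 1 (0.29, adjusted p = 0.028), with 24.1, 24.8 and 26.1 CPM with vector and 24.9, 30.9 and 30.2 CPM with WT (0.19 with all libraries, adjusted p = 0.12). It passed untreated at 0.50 and under H2O2 at 0.28 as well. SELENOP, a secreted selenoprotein, was lower in all 3 conditions, with 3.23, 3.32 and 3.14 CPM with vector and 2.16, 1.68 and 2.12 CPM with WT under arsenite (-0.69, and -0.75 without replicate 1). IRF8, an interferon regulatory factor of myeloid cells, had 2.08, 2.45 and 2.03 CPM with vector and 1.14, 0.862 and 0.924 CPM with WT (-1.14, and -1.28 without replicate 1, adjusted p = 0.022 and 0.047).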
